A study of Homo sapiens with 11 samples.

Results

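Transcripts of the machinery that starts transcription were compared between 786-0 cells given everolimus and 786-0 cells given vehicle. The genes were taken by name from the authors' table, as every entry whose symbol begins with MED or TAF and a digit, or with GTF2, GTF3 or POLR2. This rule found 97 of the table's 20500 entries, and 94 of them could be tested. They encode Mediator, the TAF subunits of TFIID and their relatives, the general transcription factors TFIIA to TFIIH, the TFII-I family, RNA polymerase II, and TFIIIA and TFIIIC, which act with RNA polymerase III. The 786-0 line comes from a human clear cell renal carcinoma and lacks functional VHL. The everolimus group was 5 samples kept for 4 h in everolimus dissolved in DMSO (dose written as "10um", read here as 10 µM), and the control group was 6 samples kept in the DMSO vehicle. Both groups were the same line, grown in DMEM. Whether the replicates were separate cultures is not stated, so every p-value refers to the variation among these 11 libraries, and this may be technical.

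As background, genes of RNA polymerase II are started by a preinitiation complex. TFIID, built of TBP and TAF proteins, binds the core promoter. TFIIA and TFIIB stabilise it there, TFIIF brings the polymerase, and TFIIE and TFIIH open the DNA. Mediator bridges activators bound at enhancers and the polymerase, with a head and middle that touch the polymerase, a tail that meets activators, and a detachable kinase module. TFIIIC reads promoters inside tRNA genes, and RNA polymerase III is a known output of mTOR complex 1, the target of everolimus, through the repressor MAF1.

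Values are scaled estimated read counts (units), with the upper quartile of the values above 0 set to about 1000 in each library, so they measure shares of the library and not RNA per cell. In these bulk samples fewer cells expressing a gene and less RNA per cell cannot be told apart. Libraries held 29760807 to 52522610 estimated reads with everolimus and 14230590 to 36828159 in control. Low values fell on whole read steps slightly less often in everolimus 1 and 2 and controls 1 to 3 (the first library set) than in everolimus 3 to 5 and controls 4 to 6 (the second). The labels name no batch, and everolimus was also compared with control inside each set. The renal markers PAX8, PAX2, MET, VIM and CDH6 were present in every library, with PAX8 at 3788 ± 107 units with everolimus and 3189 ± 78.7 in control. CDH6 was lower with everolimus (970.2 to 1390 units with everolimus, against 1913 to 2733 in control), as was PAX2 (227 ± 31.2 units with everolimus and 294 ± 14.4 in control). Of the markers of other cell types, PTPRC, PECAM1, VWF, CDH5, UMOD, SLC12A1 and AQP2 were at most 1.2547 units in any library. CD68 (367 ± 22.6 units with everolimus and 385 ± 37.3 in control), COL1A1 (61.2 ± 7.43 with everolimus and 75.5 ± 17.3 in control) and PDGFRB (40.9 ± 2.77 with everolimus and 36.6 ± 6.46 in control), of leukocytes, fibroblasts and pericytes, were detected.

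The genes moved mostly downward and by small amounts. Of the 94 tested, 6 rose and 38 fell with everolimus at a limma adjusted p under 0.05, and 50 did not pass. Among all 12668 tested genes 55.2% passed, 27.8% upward and 27.4% downward, so the initiation genes were called less often in all (46.8%), less often upward (6.38%) and more often downward (40.4%). These shares are descriptions, since no test over the list was made. The median log2 fold change was -0.09, against -0.01 over all tested genes, and the median size of the called changes was 0.20 on the log2 scale, against 0.32 for all called genes. At least 1.5-fold changes were found for 3 of the 94 (TAF4B, MED31 and the pseudogene GTF2IP1), while 11.8% of all tested genes changed that far. In 21 of the 94 (20 of them lower with everolimus) the ranges of the groups did not overlap, against 37.9% of all tested genes. Of the 44 calls, 32 held whichever single sample was left out.

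**Figure D1:**
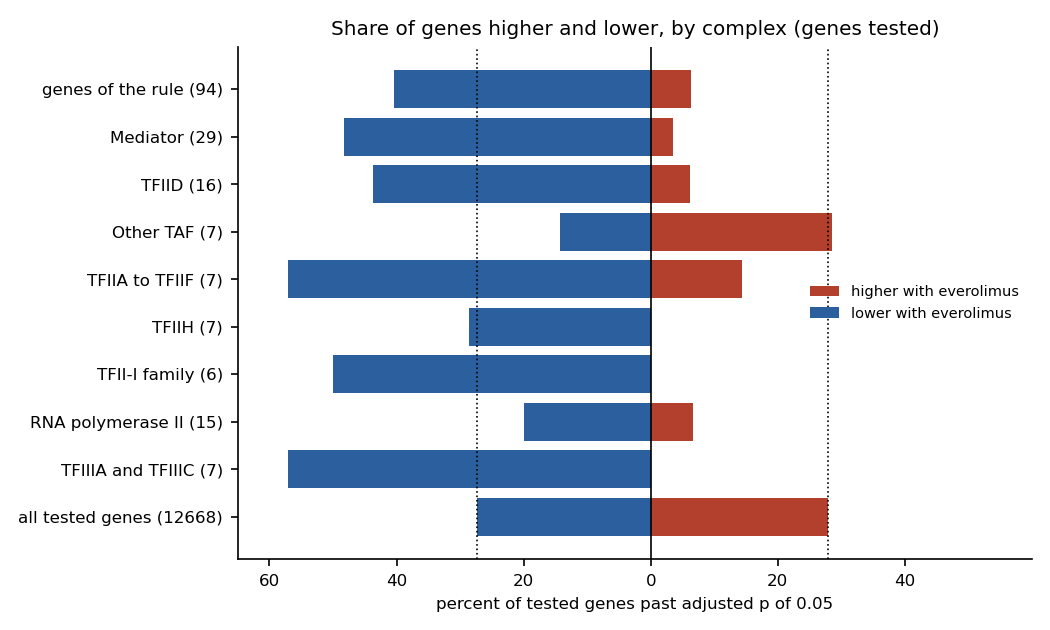
Share of tested genes with an adjusted p under 0.05, in percent, drawn to the right for genes higher with everolimus and to the left for genes lower with everolimus, for each complex (number of genes tested in brackets) and, at the bottom, for all tested genes. Dotted lines mark the shares over all tested genes (27.8% higher and 27.4% lower), and Mediator, TFIID, TFIIA to TFIIF, the TFII-I family and the group of TFIIIA and TFIIIC lie well beyond the dotted line on the lower side, TFIIH just beyond it, and RNA polymerase II short of it. The top bar is for all 94 genes. Gene copies are counted in the bars of their complexes.

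The complexes differed in their counts. Lower genes made up 14 of 29 in Mediator, 7 of 16 in TFIID and 4 of 7 in TFIIA to TFIIF. In TFIIIA and TFIIIC they were 4 of 7, and in the TFII-I family 3 of 6, with GTF2I and its pseudogene copy counted apart. Lower genes were 2 of 7 in TFIIH and 3 of 15 in RNA polymerase II, copies included, close to or below the 27.4% of all tested genes. For TFIIH this closeness rests on its 2 copies, neither of which passed. Among its core genes 2 of 5 were lower, a share above 27.4% and near that of the whole list. Median log2 fold changes were -0.11 in Mediator, -0.11 in TFIID, -0.18 in TFIIA to TFIIF and -0.17 in TFIIIA and TFIIIC. They were 0.0024 in TFIIH, with or without its copies, and -0.037 in RNA polymerase II. Within the first library set the medians were -0.063 in TFIID, -0.060 in TFIIA to TFIIF and -0.016 in RNA polymerase II. Leaving out single samples turned the sign of the TFIIH median (-0.082 without everolimus 5 to 0.053 without everolimus 2), and moved that of RNA polymerase II to -0.070 without control 4 and -0.057 without everolimus 5. That of TFIID was -0.070 without control 3. After quantile normalization, which moved the median of all genes to -0.037, these were -0.0057 in TFIIH and -0.073 in RNA polymerase II. No difference between complexes was tested.

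**Figure D2:**
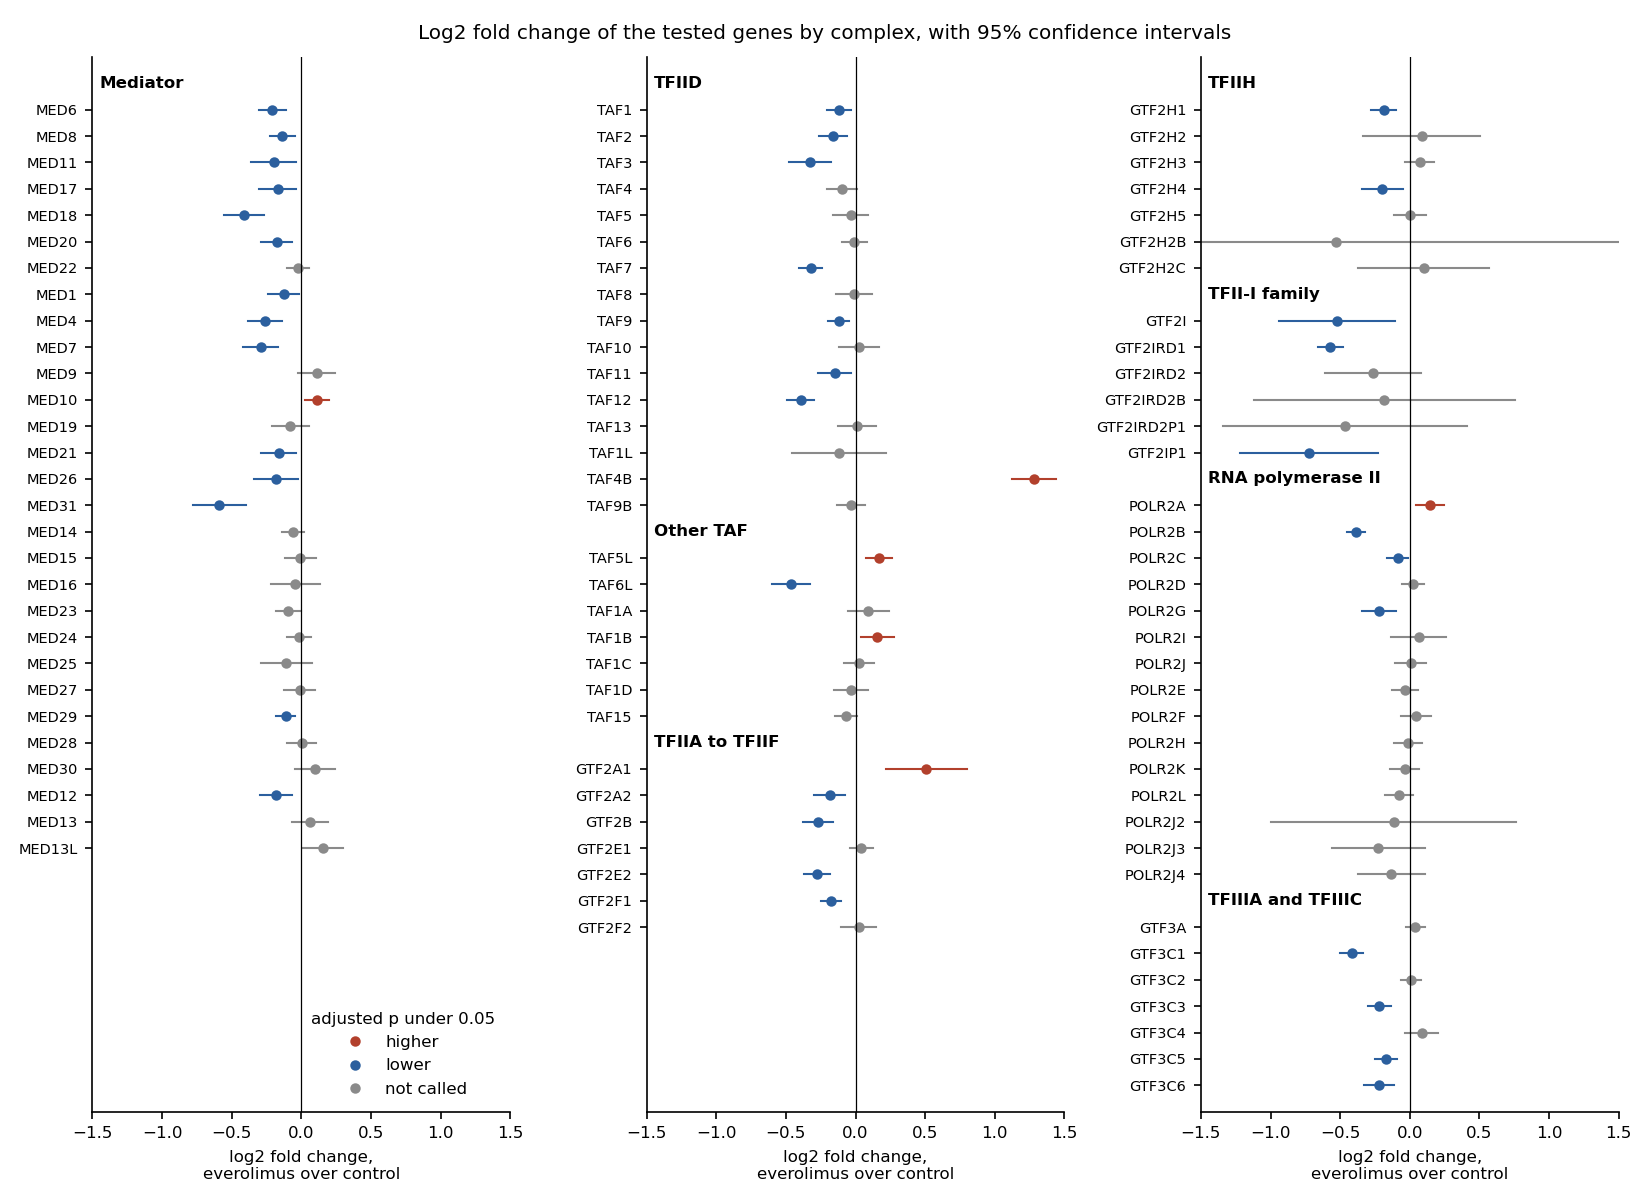
Log2 fold change of each of the 94 tested genes, everolimus over control, with its 95% confidence interval, grouped by complex. Colour marks genes higher, lower or not called at an adjusted p of 0.05; most points lie between -0.6 and 0.2, TAF4B stands apart at 1.28, and copies such as GTF2H2B have wide intervals (its bar is cut at the edges of the plot).

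Mediator's head and middle held most of its lower genes. In the head 6 of 7 genes fell and 0 rose, and in the middle 6 of 9 fell and 1 rose, MED10. Over all tested genes 27.4% fell and 27.8% rose. Of these calls, those of MED11 and MED17 in the head and MED1, MED21, MED26 and MED10 in the middle depended on single samples, as given below. In the tail 1 of 7 fell, MED29, and in the kinase module 1 of 3, MED12. MED28 and MED30, which were not assigned to a module here, did not pass (log2 0.0029 and 0.097). MED31, a small middle subunit that pairs with MED7, had 124, 134, 121, 101 and 114 units in the 5 everolimus samples, against 149 to 202 units with a median of 184 in the 6 control samples. Every everolimus value lay below every control value, and the log2 fold change was -0.59 (SE 0.089, adjusted p = 5.81e-05). MED18, which forms a movable arm of the head with MED20, had 355, 382, 339.7, 351 and 404 units with everolimus, against 429 to 557 units with a median of 488 in control. The ranges again stayed apart, and the level fell by 0.41 on the log2 scale (SE 0.066, adjusted p = 0.0001).

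The RefSeq promoter of MED31 (250 bases before the start site, GRCh38.p14, chr17:6651606-6651855, minus strand) is shown because MED31 had the largest fall in Mediator. Capitals mark GC boxes (GGGCGG) and the ETS core (CCGGAAG), on either strand.
MED31: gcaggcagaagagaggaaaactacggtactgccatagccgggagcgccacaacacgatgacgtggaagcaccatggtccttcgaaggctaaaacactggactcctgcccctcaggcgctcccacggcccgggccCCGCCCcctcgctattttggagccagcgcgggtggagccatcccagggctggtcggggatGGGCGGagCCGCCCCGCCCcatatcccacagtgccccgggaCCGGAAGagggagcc

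MED7 itself averaged 182 ± 7.23 units with everolimus and 223 ± 15.9 in control (SD, n = 5 and 6), which is -0.29 on the log2 scale (adjusted p = 0.000712). Next to it in size came MED4, of the middle (log2 -0.26, SE 0.056), and MED6, of the head (log2 -0.21, SE 0.046). MED12, which activates the kinase of the kinase module, averaged 488 ± 32.0 units with everolimus and 554 ± 34.5 in control (log2 -0.18, adjusted p = 0.0109). The fall of MED12 passed within the first library set (log2 -0.27, adjusted p = 0.0122) and not within the second (log2 -0.10, adjusted p = 0.282). Its partners MED13 and MED13L had log2 fold changes of 0.060 and 0.16 and did not pass (adjusted p = 0.422 and 0.0602). MED1, the subunit that binds nuclear receptors, averaged 1802 ± 87.1 units with everolimus and 1971 ± 146 in control (log2 -0.13, adjusted p = 0.0465).

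MED10 was the only Mediator gene to rise, with 1111 ± 35.5 units with everolimus and 1027 ± 50.8 in control (log2 0.11, adjusted p = 0.0273). The scaffold MED14, which joins head, middle and tail, did not pass (log2 -0.058, 95% confidence interval -0.14 to 0.020). Of the tail genes, MED15 had an interval of -0.12 to 0.10 and MED24 of -0.10 to 0.070, so falls as large as that of MED31 lie outside both. The tail gene that fell, MED29, changed by -0.11 (SE 0.032). MED12L, the paralog of MED12, did not reach the filter, with at most 3.21 units in any library.

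Several Mediator calls were close to the threshold. The call of MED11 was lost on leaving out any 1 sample other than control 2 or 5 (adjusted p up to 0.0874), and that of MED1 any other than everolimus 4 or control 4 or 6 (up to 0.116). MED26 was lost without everolimus 1, 2, 3 or 5 or control 2, 3 or 6 (up to 0.14), and MED17 without everolimus 4 or 5 or control 1, 3, 5 or 6 (up to 0.0857). MED21 was lost without everolimus 4 or 5 or control 1, 3 or 6 (up to 0.0636), and MED10 without everolimus 2, 3 or 5 (up to 0.0669). After quantile normalization MED10 no longer passed (adjusted p = 0.0526), and in the second library set MED1 changed by -0.042, against -0.22 in the first.

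In TFIID, 7 of the 13 standard subunits fell and 0 rose, while 1 of 3 tested paralogs rose. TAF4B showed the largest change of the 94 genes. It encodes a paralog of TAF4 that was first found in B cells and can take the place of TAF4 in TFIID. TAF4B had 422, 384, 431, 424 and 408 units in the everolimus samples, against 148 to 199 units with a median of 173 in the control samples. All everolimus values lay far above the control range, and the level was 2.43-fold higher (log2 1.28, SE 0.074, adjusted p = 2.59e-09). Its log2 rise was 1.28 for the first library set, and 1.26 for the second. TAF4 averaged 519 ± 16.9 units with everolimus and 555 ± 37.9 in control, and its log2 fold change of -0.10 did not pass (95% confidence interval -0.20 to 0.010, adjusted p = 0.116).

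The promoters of this pair are shown because the paralogs responded unequally (RefSeq, GRCh38.p14, 250 bases before the start site; TAF4B at chr18:26226195-26226444, plus strand, and TAF4 at chr20:62065882-62066131, minus strand). Capitals mark, on either strand, the GC box GGGCGG, the CCAAT box, the E-box CACGTG and the cyclic AMP response element TGACGTCA; only TAF4B held the last 2.
TAF4B: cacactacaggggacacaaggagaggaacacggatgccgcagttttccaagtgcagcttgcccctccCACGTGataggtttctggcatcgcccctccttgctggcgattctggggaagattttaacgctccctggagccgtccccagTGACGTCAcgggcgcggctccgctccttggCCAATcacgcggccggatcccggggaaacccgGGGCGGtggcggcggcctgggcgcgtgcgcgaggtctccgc
TAF4: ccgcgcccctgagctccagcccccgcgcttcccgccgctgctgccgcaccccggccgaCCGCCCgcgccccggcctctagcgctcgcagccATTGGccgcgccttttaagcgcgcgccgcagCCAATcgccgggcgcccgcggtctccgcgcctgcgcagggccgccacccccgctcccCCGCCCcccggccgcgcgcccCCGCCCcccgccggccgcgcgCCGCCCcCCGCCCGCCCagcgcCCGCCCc

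TAF12, which pairs with TAF4 or TAF4B through a histone fold, fell most among the TFIID genes. It had 458, 488, 470.3, 454 and 494 units with everolimus, against 579 to 668 units with a median of 623 in control. All everolimus values lay below all control values (log2 -0.39, SE 0.044, adjusted p = 3.19e-06). TAF7, which binds TAF1 and restrains its enzymatic activity, averaged 2288 ± 92.8 units with everolimus and 2859 ± 129.9 in control (log2 -0.32, SE 0.038). TAF3, whose PHD finger reads trimethylated lysine on histone H3, fell by a similar amount (log2 -0.33, SE 0.070, adjusted p = 0.00113). Its change was -0.47 within the first library set and -0.19 within the second, where it did not pass (adjusted p = 0.114).

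The scaffold subunit TAF1 was 703 ± 33.8 units with everolimus and 763 ± 29.1 in control (log2 -0.12, adjusted p = 0.0259). TAF2, which binds initiator DNA (log2 -0.16), TAF9, the histone-fold partner of TAF6 (-0.12), and TAF11, the partner of TAF13 (-0.15), fell too, and TAF5, TAF6, TAF8, TAF10 and TAF13 lay between -0.034 and 0.026 without passing. TAF9B, the paralog of TAF9, did not pass (log2 -0.032, interval -0.13 to 0.069), nor did TAF1L, the paralog of TAF1 (interval -0.45 to 0.22). The call of TAF1 was lost without everolimus 5 or control 6 (adjusted p up to 0.0767), and that of TAF11 without everolimus 3 or 4 or control 1, 3 or 6 (up to 0.0935). TAF7L, at most 1.61 units, was not tested.

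**Figure D3:**
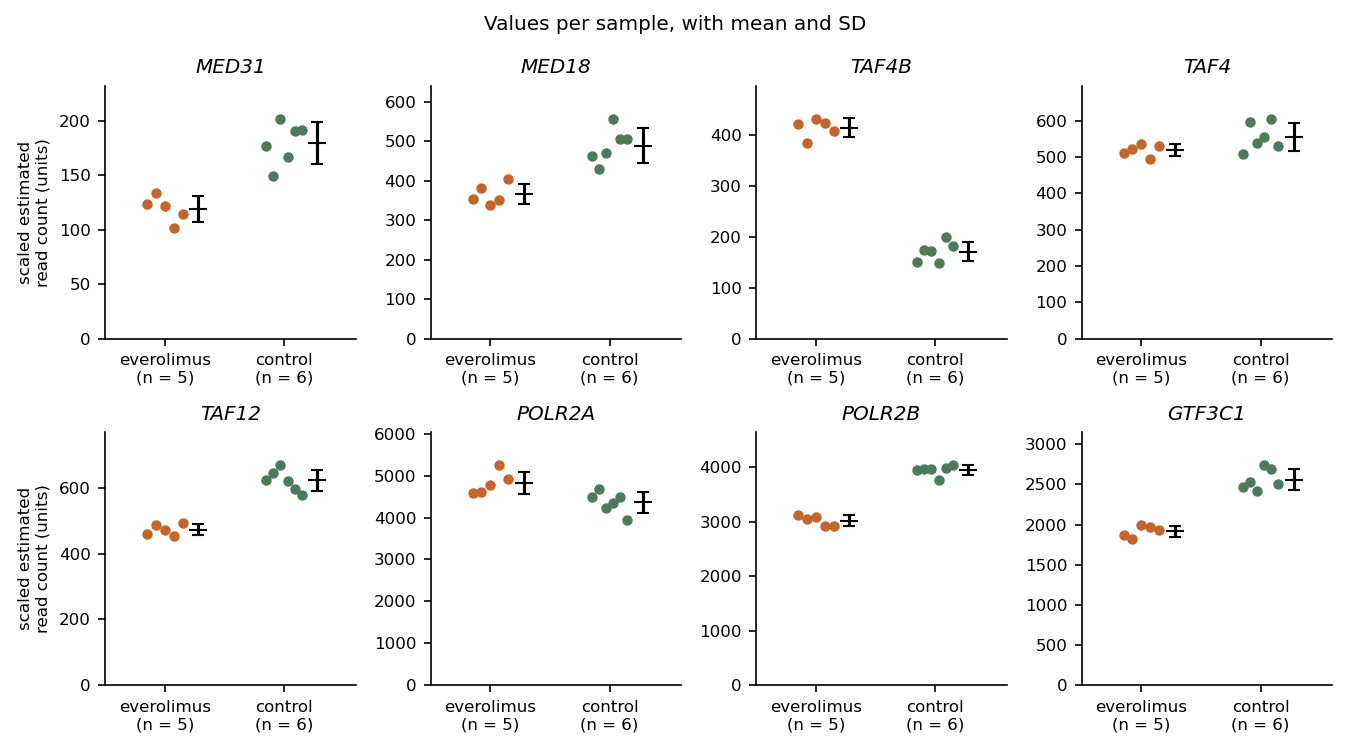
Scaled estimated read counts (units, axis from 0) of 8 genes in each everolimus and control sample, with the mean and SD of each group beside the points. The groups are fully apart for MED31, MED18, TAF4B, TAF12, POLR2B and GTF3C1, and overlap for TAF4 and POLR2A.

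Other proteins named TAF serve other complexes. TAF5L and TAF6L are the relatives of TAF5 and TAF6 found in the SAGA coactivator, and their transcripts moved in opposite directions. TAF6L had 172, 181, 177, 181 and 196 units with everolimus, against 218 to 269.7 units with a median of 253 in control, and these ranges did not meet (log2 -0.46, SE 0.062, adjusted p = 2.00e-05). TAF5L had 848, 899, 883, 831 and 832 units with everolimus, against 698 to 835 units with a median of 764 in control. Its ranges overlapped slightly, and it rose by 0.17 on the log2 scale (SE 0.044, adjusted p = 0.00498). Of the SL1 subunits TAF1A to TAF1D, which recruit RNA polymerase I, TAF1B rose (log2 0.16, adjusted p = 0.0257) and the other 3 did not pass. That call was lost without everolimus 1 or 2 or control 2 or 3 (adjusted p up to 0.0671). TAF15, an RNA-binding protein of the FET family, did not pass (log2 -0.067), but after quantile normalization it did (adjusted p = 0.00859).

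Among TFIIA, TFIIB, TFIIE and TFIIF, 1 gene rose and 4 fell. GTF2B, which encodes the single chain of TFIIB, had 430.1, 411, 421, 382 and 424 units with everolimus, against 456 to 531 units with a median of 507 in control. The groups were apart (log2 -0.27, SE 0.051, adjusted p = 0.000393). GTF2E2, the small chain of TFIIE, had 423, 431, 402, 428 and 414 units with everolimus, against 462 to 533 units with a median of 515 in control. It too fell without overlap (log2 -0.28, SE 0.044, adjusted p = 8.92e-05), whereas the large chain GTF2E1 did not pass (log2 0.042, interval -0.042 to 0.13).

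In TFIIF the large chain GTF2F1 fell (log2 -0.18, SE 0.034) and the small chain GTF2F2 did not pass (log2 0.024, interval -0.10 to 0.15). The chains of TFIIA went opposite ways. GTF2A1, the precursor of its alpha and beta chains, averaged 194 ± 21.5 units with everolimus and 138 ± 31.0 in control (log2 0.51, SE 0.14, adjusted p = 0.00573). GTF2A2, its gamma chain, averaged 992 ± 68.1 units with everolimus and 1128 ± 66.8 in control (log2 -0.19, SE 0.052, adjusted p = 0.00744). In the first library set neither passed (log2 0.26 and -0.060), while in the second both did (0.72 and -0.29); GTF2B also missed the threshold in the first set (adjusted p = 0.0609). GTF2A1L, a germ cell paralog, was listed at 0 in every library.

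TFIIH opens promoter DNA and also serves nucleotide excision repair. Of its 5 core genes named GTF2H, 2 fell and 0 rose. GTF2H1, the p62 subunit, had 889, 876, 902, 887 and 886 units with everolimus, against 931 to 1071 units with a median of 1035 in control, with no overlap (log2 -0.19, SE 0.043, adjusted p = 0.00184). GTF2H4, the p52 subunit, had 348, 381, 355, 319 and 359 units with everolimus, against 359.8 to 462 units with a median of 407 in control. Those ranges overlapped, and the change of -0.20 (SE 0.069, adjusted p = 0.0257) was no longer called when everolimus 1 or 4 or control 1, 3 or 6 was left out (adjusted p up to 0.0716). GTF2H3 and GTF2H5 did not pass (log2 0.072 and 0.0024). GTF2H2 has close copies on chromosome 5 (67.4% of the 50-base windows of GTF2H2B and GTF2H2C transcripts occurred in those of GTF2H2), and its own value ranged from 175 to 361 units among the everolimus samples and from 153 to 313 in control. The copy GTF2H2B was the lowest gene that reached the filter, with 16.1 ± 17.7 units with everolimus and 31.3 ± 30.3 in control.

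The TFII-I family had the lowest median, with 3 of 6 genes lower and 0 higher. The 3 were GTF2IRD1, GTF2I and GTF2IP1, and the last is a pseudogene copy of GTF2I, so they are not separate cases. The median also rests on the pseudogene GTF2IRD2P1, which did not pass (log2 -0.46, SE 0.41). GTF2I encodes TFII-I, which binds initiator elements and E-boxes, and GTF2IRD1 encodes a relative from the same region of chromosome 7. GTF2IRD1 had 1046, 1097, 1044, 992 and 1169 units with everolimus, against 1520.0 to 1642 units with a median of 1583 in control. Every everolimus value lay far below the control range (log2 -0.57, SE 0.041, adjusted p = 3.06e-08).

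For GTF2I the table has a second line, GTF2IP1, a transcribed pseudogene. Of all 50-base windows in the GENCODE 29 transcripts of GTF2IP1, 90.0% also occurred in transcripts of GTF2I, and of those of GTF2I, 63.1% occurred in transcripts of GTF2IP1. GTF2IP1 had 2258, 2614, 3854, 3958 and 4162 units with everolimus, against 2653 to 6676 units with a median of 6391 in control, and GTF2I had 4433, 4549, 3037, 2618 and 2603 units with everolimus, against 3669 to 8126 units with a median of 4581 in control. Control 1 and everolimus 1 and 2 had the lowest shares of GTF2IP1. The part assigned to GTF2IP1 ranged from 33.7% to 61.5% of the sum with everolimus and from 24.6% to 64.5% in control. Tested apart, GTF2IP1 fell by 0.73 on the log2 scale (SE 0.23, adjusted p = 0.0154) and GTF2I by 0.52 (SE 0.19, adjusted p = 0.0331). The GTF2I call was lost without everolimus 3, 4 or 5 or control 1 (adjusted p up to 0.0894).

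Added together, a choice made after the values were seen, the pair was far steadier. The sum was 6691, 7164, 6891, 6576 and 6765 units with everolimus, against 9853 to 11207 units with a median of 10596 in control. These ranges were well separated (log2 -0.64, SE 0.038, adjusted p = 3.28e-09). Reads from shared stretches could be assigned to either, and the sum does not depend on that division.

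**Figure D4:**
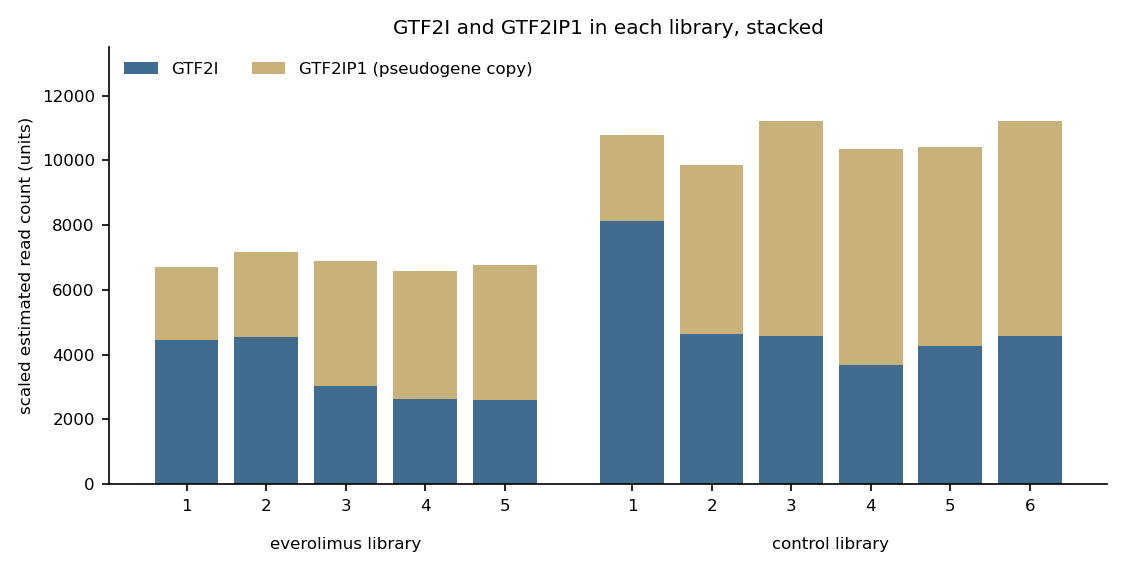
Scaled estimated read counts (units) of GTF2I and its pseudogene copy GTF2IP1, stacked, in each everolimus and control library. The division between the 2 colours changes from library to library, while the full bars stay between 6576 and 7164 units with everolimus and between 9853 and 11207 in control.

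RNA polymerase II itself had the lowest share of called genes among the complexes, 26.7%, against 55.2% of all tested genes. Of its 15 genes 1 rose and 3 fell, all 4 of them among the 7 subunits not shared with the other polymerases (57.1% called). None of the 5 shared subunits passed (log2 -0.077 to 0.044). Nor did the variable copies POLR2J2, POLR2J3 and POLR2J4, which count among the 15. The polymerase's 2 largest subunits, which together form the active site, went in opposite directions. POLR2B had 3129, 3051, 3091, 2922 and 2917 units with everolimus, against 3765 to 4034 units with a median of 3975 in control. The groups were widely apart (log2 -0.39, SE 0.030, adjusted p = 7.30e-08), and the change was -0.36 within the first library set and -0.40 within the second. POLR2A, whose tail of heptad repeats is phosphorylated as transcription starts, had 4595, 4624, 4773, 5248 and 4917 units with everolimus, against 3952 to 4682 units with a median of 4422 in control. The 3 second-set everolimus values lay above every control value and the 2 first-set ones did not (log2 0.15, SE 0.046, adjusted p = 0.0144). That call was lost in the first library set (log2 0.045, adjusted p = 0.501; second set 0.22, adjusted p = 0.00747) and after quantile normalization (log2 0.073, adjusted p = 0.253).

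The promoters of POLR2A (chr17:7484116-7484365, plus strand) and POLR2B (chr4:56978646-56978895, plus strand) are set side by side because their transcripts diverged (RefSeq, GRCh38.p14, 250 bases before the start site). Capitals mark GC boxes, the only one of the 7 motifs searched that either held.
POLR2A: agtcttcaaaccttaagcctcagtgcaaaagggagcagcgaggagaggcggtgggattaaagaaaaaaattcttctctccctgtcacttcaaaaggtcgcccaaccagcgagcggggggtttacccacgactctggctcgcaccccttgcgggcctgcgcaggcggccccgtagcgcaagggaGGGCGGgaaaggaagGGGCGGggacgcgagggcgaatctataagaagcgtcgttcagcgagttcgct
POLR2B: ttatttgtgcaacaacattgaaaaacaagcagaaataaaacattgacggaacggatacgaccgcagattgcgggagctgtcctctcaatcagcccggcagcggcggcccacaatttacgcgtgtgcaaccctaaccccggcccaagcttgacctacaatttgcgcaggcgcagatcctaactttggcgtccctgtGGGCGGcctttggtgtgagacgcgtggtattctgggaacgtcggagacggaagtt

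POLR2G, a subunit of the stalk, had 719, 775, 708, 606 and 715 units with everolimus, against 766 to 886 units with a median of 809.7 in control. Only everolimus 2 reached into the control range (log2 -0.22, SE 0.057, adjusted p = 0.00442). POLR2C, an assembly subunit, averaged 1654 ± 82.7 units with everolimus and 1756 ± 22.5 in control. The call (log2 -0.088, adjusted p = 0.0441) was lost without everolimus 4 or 5 or any control other than 4 (up to 0.121) and with library set as a covariate (adjusted p = 0.0545). POLR2D, POLR2I and POLR2J did not pass, and the interval of POLR2J was -0.10 to 0.12.

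TFIIIC had 4 lower genes among its 6, and TFIIIA, which serves the 5S RNA genes, did not pass (GTF3A, log2 0.040, interval -0.030 to 0.11). GTF3C1, the largest subunit, which contacts the B box of tRNA genes, had 1869, 1825, 1994, 1964 and 1929.8 units with everolimus, against 2414 to 2738 units with a median of 2519.8 in control. All everolimus samples lay below all controls (log2 -0.42, SE 0.039, adjusted p = 4.83e-07), with changes of -0.42 and -0.43 inside the first and second library sets. GTF3C3 had 863, 821, 834, 859.5 and 785 units with everolimus, against 909 to 1005 units with a median of 978 in control, without overlap (log2 -0.22, SE 0.038, adjusted p = 0.000237). GTF3C5 (log2 -0.17) and GTF3C6 (-0.22, SE 0.051) fell by like amounts, and GTF3C2 (interval -0.063 to 0.078) and GTF3C4 (log2 0.084) did not pass.

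The GTF3C1 promoter is shown as that of the TFIIIC gene with the largest change (RefSeq, GRCh38.p14, chr16:27549914-27550163, minus strand, 250 bases). Capitals mark an ETS core, a CCAAT box, a GC box and a cyclic AMP response element.
GTF3C1: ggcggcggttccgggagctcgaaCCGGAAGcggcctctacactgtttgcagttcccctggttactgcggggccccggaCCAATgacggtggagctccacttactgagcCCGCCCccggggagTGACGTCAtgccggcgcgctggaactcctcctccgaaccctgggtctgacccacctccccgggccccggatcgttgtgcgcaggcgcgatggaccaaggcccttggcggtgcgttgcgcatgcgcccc

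Across the 83 RefSeq promoters matched to 69 of the 94 genes, 7 short motifs were looked for on both strands in the 250 bases before the start. The ETS core CCGGAAG, the element of a family of factors common at housekeeping promoters, was in 31.3% of them, against 13.7% of the 13018 promoters of all tested genes and 8.52% of all 35116 promoters in the table. Promoters of 1 gene can overlap, so they are not separate cases. It was in 16 of 36 promoters of genes that fell, 2 of 8 of genes that rose and 8 of 39 of genes that did not pass. The same split over all tested genes is not given here, so these counts stand without a background. The E-box CACGTG was in 16.9%, against 8.2% over tested genes. By call it was in 7 of 36 promoters of genes that fell, 4 of 8 of genes that rose and 3 of 39 of the others. TGACGTCA was in 4.82%, against 2.41%, and AAGATGG, the core read by YY1, in 6.02%, against 3.37%. GC boxes (59.0%, against 63.2%), CCAAT boxes (30.1%, against 32.9%) and TATAAA (4.82%, against 5.83%) were not more frequent. A match of letters is a description and not a site shown to be used.

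The library sets share no sample, so the comparison was made again in other libraries. The sets were drawn from the values and separate cultures are not stated, so this need not be an independent repeat of the treatment. In the first set 4 of the 94 genes rose and 21 fell, against 24.0% and 19.3% of all tested genes, and in the second 4 rose and 27 fell, against 21.1% and 22.5%. All 44 called genes had the same sign in both sets, which their selection over all libraries favours, and 15 of them passed in each. Without that selection, 70 of the 94 genes (74.5%) had the same sign in both sets, against 82.5% of all tested genes. The share of all tested genes that passed in both sets is not given here, so the 15 stand without a background. The 15 were TAF4B, which rose, and 14 that fell, among them MED31, MED18, MED7, TAF12, TAF7, TAF6L, GTF2IRD1, POLR2B and GTF3C1. An interaction term of treatment and set in limma passed for 0 of the 94, with 9 at an unadjusted p under 0.05, and for 0 of all tested genes, with 783 at that p.

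**Figure D5:**
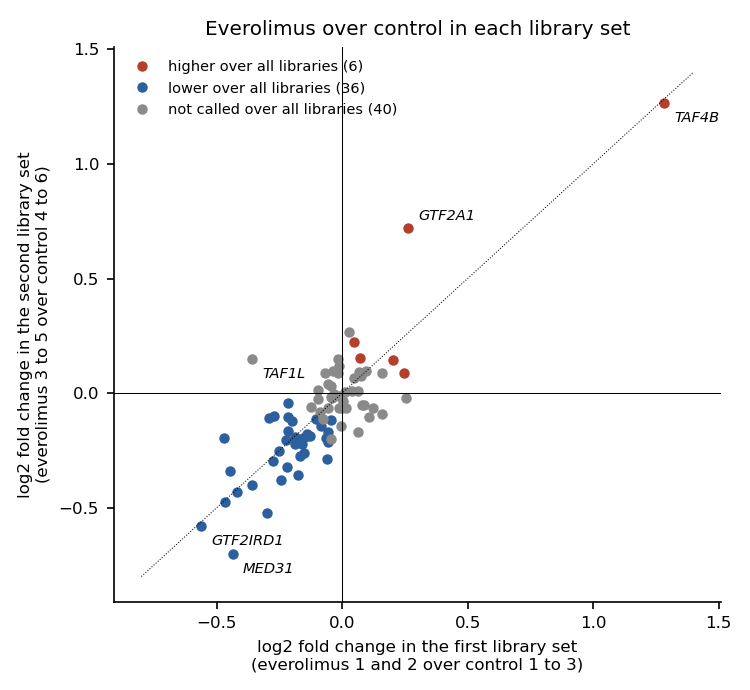
Log2 fold change, everolimus over control, in the first library set (horizontal) against the second (vertical) for the 82 tested genes outside the GTF2I, GTF2IRD2, GTF2H2 and POLR2J copy families, coloured by the call over all libraries; the dotted line marks equal change. TAF4B lies far to the upper right, and the genes lower over all libraries lie in the lower left.

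Partners of these complexes with other names were taken as a list of 52 tested genes, of which 11 rose (21.2%) and 15 fell (28.8%), against 27.8% and 27.4% of all tested genes. The counts in the groups of this list are small, and the same shares of all tested genes are their background. Of the Mediator kinase genes CDK8, CDK19 and CCNC, CCNC, cyclin C, fell (1116 ± 46.6 units with everolimus and 1282 ± 109.7 in control; log2 -0.20, adjusted p = 0.00757). Of 5 genes of TBP and its regulators 3 fell and 1 rose. TBP fell by 0.18 on the log2 scale (SE 0.053), and BTAF1, which strips TBP from DNA, averaged 1333 ± 62.1 units with everolimus and 1667 ± 100.2 in control (log2 -0.32, SE 0.046). Of 5 TFIIH genes not named GTF2, 2 fell, MNAT1 (-0.29) and CCNH (-0.34, SE 0.043), the partners of CDK7. The enzymes CDK7, ERCC2 and ERCC3 did not pass (log2 0.046, -0.052 and -0.095).

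Of 15 factors of pausing and elongation 4 rose and 2 fell. HEXIM1, which holds the elongation kinase P-TEFb inactive, averaged 675 ± 37.7 units with everolimus and 1348 ± 50.6 in control (log2 -0.998, SE 0.042, adjusted p = 1.04e-10). ELL2, of the super elongation complex, rose (log2 0.69, SE 0.057). Of 5 genes for assembly of RNA polymerase II 3 fell, RPAP2 most clearly (log2 -0.38, SE 0.060), and 1 rose, the GTPase GPN1 (0.24). Of 8 genes of SNAPc and TFIIIB 2 rose and 1 fell, with SNAPC4, the largest SNAPc subunit, at 0.33 (SE 0.059). Of 11 genes of RNA polymerase III 3 rose and 3 fell, with the subunit POLR3D at 0.34 (SE 0.055).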

How the data were processed

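RNA-seq of 11 samples of 786-0 cells was used. Per the labels' protocols, RNA was extracted with a Qiagen kit and libraries were made with a stranded mRNA kit. The table the authors deposited holds a scaled signal, never below 0, with the upper quartile (percentile 75) of values above 0 between 999.6 and 1001 in each column. The submitters' processing notes name hg19, Picard 1.64, SAMtools and RSEM, without roles; aligner, annotation and use of strand: not given in the sources used here, so reads of overlapping or antisense genes cannot be told apart. By its steps, 1 read was worth 0.307 to 1.05 units, and 89.4% to 94.0% of values up to 200 reads were whole within 0.1 reads, so no count model was used. A count of 3 reads equals 0.920 to 3.15 units, a floor for counting error only. All 11 columns were matched by title and 0 were left unused.

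Values were tested as log2(value + 1) with limma 3.58.1 (R 4.3.3; trend on intensity; two-sided) over the 12668 rows with at least 10 units in at least 5 columns, with Benjamini-Hochberg adjustment over all of them and a threshold of 0.05. Fold changes are on that log2 scale and understate those of low genes. Errors are SD for levels and SE for log2 fold changes. The script was tested on simulated data. No pair of samples in a group agreed within counting noise (the median chi-square was at least 2.16 times that of Poisson counts). The genes, lists and alternatives were chosen with earlier results of these data known. Named were, for each complex, the 3 largest called rises and falls with a mean of at least 100 units, plus MED1, MED12, MED14, TAF1, GTF2B, POLR2A and GTF3C1, and for each list of partners the called gene of smallest p; other genes were named after their values were seen. Alternatives were other scalings, filters, pseudocounts and limma settings, leaving out each sample, a replicate block, the library sets, and sums of gene copies. RefSeq (GRCh38.p14) gave promoters for 69 of the 94 genes, matched by symbol.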

Additional observations from a re-analysis of the deposited data

Results flagged for a closer look

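Among 62 groups (31 named genes, everolimus and control), 4 had a sample whose gap to the others was large against the group's range, and chance alone gives about 1 in 20. MED10 was 929.7 units in control 4, against 1029.7 to 1071 in the other controls. POLR2B was 3765 units in control 4, against 3955 to 4034 in the other controls. GTF2I was 8126 units in control 1, against 3669 to 4621 in the other controls. GTF2IP1, its pseudogene, was 2653 units in that same control, against 5232 to 6676 in the others, while the sum of the pair there was 10778 units, inside the range of the other controls.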

How the results depend on the processing

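No gene was called in opposite directions between the fit over all libraries and any alternative; the largest counts of lower genes among the 94 were 41 after quantile normalization (31.9% of all genes lower) and 39 with library set as a covariate (28.2%), against 38 over all libraries (27.4%). Leaving out each sample in turn gave 5 to 7 higher and 30 to 38 lower genes (24.3% to 28.4% of all genes lower). With single samples left out, the medians of the 6 main complexes moved by less than their spread between samples. The spread is the SD within groups of the mean log2 value. For TFIIH this spread was 0.30, against 0.024 to 0.062 in the others, so the check could hardly fail there. The TFIIH median turned sign (-0.082 to 0.053). Within the first library set 21 fell (19.3% of all genes lower), and the medians were -0.063 for TFIID and -0.060 for TFIIA to TFIIF. Both moved by more than their spreads of 0.041 and 0.050. That set has 5 samples, fewer than the whole. After quantile normalization the median of TFIIIA and TFIIIC was -0.20, a move beyond its spread of 0.028, while the median of all genes was -0.04. The numbers of the samples were not shown to pair them. In their deviations 4 of 5 same-numbered pairs correlated above 0.1, and pair 3 at -0.51. Everolimus 3 and control 3 lie in different library sets, while the other same-numbered pairs share a set. These correlations therefore cannot decide on pairing. Only 1 of 5 everolimus samples correlated best with its own number. A fit with the replicate number as a block gave 4 higher and 27 lower genes (23.6% of all genes lower). MED14 passed after quantile normalization (adjusted p = 0.04996), MED1 was lost when columns were centred (0.0740) or no filter was used (0.0596), and POLR2C with sample weights (0.0788). With copy families summed after the data were seen, 6 rose and 37 fell. Depth limits the lowest genes most. GTF2H2B was listed at 0 in everolimus 2 (46805892 estimated reads) and control 3 (26567238). In control 4, the library with the fewest (14230590), it had 12.6 units, so these zeros did not follow depth.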

Other observations

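The median SD within groups on the log2 scale was 0.42 for the 12 genes and pseudogenes of the GTF2I, GTF2H2, GTF2IRD2 and POLR2J families, 0.085 for the other 82 genes and 0.097 for all tested genes. POLR2J itself varied little, with an SD of 0.092. The 50-base windows of the copies that occurred in the parent gene made up 67.4% for GTF2H2, 65.6% for GTF2IRD2 and 3.05% for POLR2J. In the other direction, 58.5% of the windows of GTF2H2, 58.1% of those of GTF2IRD2 and 36.7% of those of POLR2J occurred in their copies. Summed after the values were seen, GTF2H2 with GTF2H2B and GTF2H2C averaged 495 ± 32.2 units with everolimus and 478 ± 13.9 in control (log2 0.048, SE 0.047, adjusted p = 0.409). GTF2IRD2 with GTF2IRD2B and GTF2IRD2P1 averaged 281 ± 46.4 units with everolimus and 323 ± 33.8 in control (log2 -0.21, SE 0.10, adjusted p = 0.0984). POLR2J with POLR2J2, POLR2J3 and POLR2J4 averaged 2115 ± 182 units with everolimus and 2227 ± 115 in control (log2 -0.077, SE 0.053, adjusted p = 0.234). None of these 3 sums passed.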
